A study of Homo sapiens with 95 samples.

Results

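The response of NRF2 overexpressing airway cells to benzo[a]pyrene (BaP) was taken from 6 of the 95 libraries of the series: the 3 libraries of NRF2 cells given BaP and the 3 of NRF2 cells given the vehicle, DMSO, chosen by their labels. The 3 BaP and 3 DMSO libraries of HcRed cells were set beside them. All 12 libraries came from AALE cells, an immortalized human bronchial epithelial line. The NRF2 cells overexpressed NRF2, whose gene symbol is NFE2L2, and the HcRed cells carried an empty vector with the reporter HcRed, the control for overexpression. BaP was given at 173 μM in replaced medium after the cells had grown to confluency. The labels state neither the promoter of the vector nor the number of clones, and the exposure time is not given in the sources used here. Sparse full length (SFL) sequencing gave read counts for 27978 genes per library. The NRF2 libraries held 821030 to 1253025 counted reads and the HcRed libraries 460538 to 1494564, the lowest being HcRed-BaP 3, so that 3 reads corresponded to 2.01 to 6.51 CPM, counts scaled to library size. Of all genes, 9618 had no read in any of the 6 NRF2 libraries.

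BaP is a polycyclic aromatic hydrocarbon of tobacco smoke and soot. It binds the aryl hydrocarbon receptor (AhR), a transcription factor held in the cytosol by HSP90, which then enters the nucleus, pairs with ARNT and binds xenobiotic response elements beside genes such as CYP1A1. The induced enzymes oxidize BaP to reactive quinones and to a diol epoxide that binds DNA. NRF2 is a second transcription factor of the chemical stress response: electrophiles release it from KEAP1, which otherwise directs its degradation, and it then pairs with small MAF proteins on antioxidant response elements beside NQO1, TXNRD1 and glutathione genes. NQO1 and ALDH3A1 are known targets of both factors.

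To show matches to the core letters of these elements, promoters of 4 genes that rose are printed from 250 bases before to 50 bases after the listed start. Binding of either factor to the marked letters was not measured. They come from a RefSeq table of GRCh38.p14 and were placed by exact match in GRCh37 (hg19). Each covers sequence upstream of the gene and the start of its first exon. Capitals mark the core of the xenobiotic response element (GCGTG, either strand) in the genes for the oxidase CYP1A1 (chr15:75017820-75018119, minus strand), the AhR repressor AHRR (chr5:321579-321878, plus strand, the first of 2 listed starts) and the quinone reductase NQO1 (chr16:69760414-69760713, minus strand). In the thioredoxin reductase TXNRD1 (chr12:104609307-104609606, plus strand, the first of 2 listed starts) they mark the core of the antioxidant response element (TGACNNNGC, either strand).
CYP1A1: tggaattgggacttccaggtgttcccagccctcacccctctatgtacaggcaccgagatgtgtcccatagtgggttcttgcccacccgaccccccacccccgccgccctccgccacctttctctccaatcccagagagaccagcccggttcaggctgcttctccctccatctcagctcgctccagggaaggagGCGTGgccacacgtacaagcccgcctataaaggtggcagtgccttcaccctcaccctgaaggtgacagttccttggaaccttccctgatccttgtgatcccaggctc
AHRR: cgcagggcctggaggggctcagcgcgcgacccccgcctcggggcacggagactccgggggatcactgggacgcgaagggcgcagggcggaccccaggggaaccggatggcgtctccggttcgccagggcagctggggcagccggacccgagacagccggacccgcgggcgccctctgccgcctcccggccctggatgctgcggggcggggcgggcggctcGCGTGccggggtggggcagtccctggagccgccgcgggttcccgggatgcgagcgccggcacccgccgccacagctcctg
NQO1: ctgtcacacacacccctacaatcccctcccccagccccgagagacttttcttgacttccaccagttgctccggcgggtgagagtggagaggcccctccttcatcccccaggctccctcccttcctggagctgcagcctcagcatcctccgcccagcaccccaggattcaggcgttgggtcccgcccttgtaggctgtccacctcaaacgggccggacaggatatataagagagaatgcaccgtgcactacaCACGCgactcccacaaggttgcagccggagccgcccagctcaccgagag
TXNRD1: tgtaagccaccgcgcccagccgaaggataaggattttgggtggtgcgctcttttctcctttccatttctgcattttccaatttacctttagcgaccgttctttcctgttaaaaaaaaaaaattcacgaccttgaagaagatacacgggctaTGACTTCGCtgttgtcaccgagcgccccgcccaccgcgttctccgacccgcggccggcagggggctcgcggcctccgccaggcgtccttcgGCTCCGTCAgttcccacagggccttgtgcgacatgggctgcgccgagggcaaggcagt
Counted from the listed start, the CYP1A1 match lay at -57, the AHRR match at -30, the NQO1 match at 2, read as CACGC, and the 2 TXNRD1 matches at -99 and -8. Matches of so short a core were common. GCGTG stood in 36.5% of all 35116 promoters of that length in the table and in 47.9% of the promoters of the tested genes, against 49.3% for the genes that rose in NRF2 cells and 49.6% for those that fell. It stood in 6 of the 11 promoters found for AhR target genes. TGACNNNGC stood in 13.3% of all promoters, 14.5% of those of tested genes, 17.6% of those of genes that rose and 14.6% of those of genes that fell. It stood in 10 of the 27 promoters found for NRF2 target genes.

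The targeted gene was high in every NRF2 library. On the scale of log2 CPM, NFE2L2 measured 10.66, 10.67 and 10.83 in NRF2-DMSO and 10.44, 10.45 and 10.45 in NRF2-BaP, against 7.88, 7.71 and 7.76 in HcRed-DMSO and 7.96, 7.90 and 7.76 in HcRed-BaP. All 6 NRF2 libraries lay above all 6 HcRed libraries. The counts do not separate the transgene from the gene of the cell. Within the NRF2 line, the BaP libraries lay below the DMSO libraries without overlap, and NFE2L2 fell by 0.27 on the log2 scale (SE 0.04, limma-voom adjusted p = 9.5e-08). In HcRed cells its log2 fold change was 0.11 (limma adjusted p = 0.648). The difference between the lines, -0.38 (95% interval -0.60 to -0.17), did not pass after adjustment (limma adjusted p = 0.196).

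Of the 14215 genes that averaged more than 1 read over the 6 NRF2 libraries, 554 rose and 655 fell with BaP at an adjusted p under 0.05, which is 3.9% and 4.61% of those tested. Of these 1209 genes, 93 rose and 42 fell by more than 1 on the log2 scale, and 1176 averaged 10 reads or more. In HcRed cells the same test called 380 genes higher and 292 lower, 2.67% and 2.05% of 14240. The unadjusted p was under 0.05 for 3105 genes in NRF2 cells and 2542 in HcRed cells. In each line the median log2 fold change of all genes was 0.00.

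The largest rise in NRF2 cells was in CYP1A1, the main BaP oxidizing enzyme induced by AhR. Its reads numbered 10, 6 and 9 in NRF2-DMSO and 650, 462 and 437 in NRF2-BaP, or 3.62, 3.22 and 3.66 against 9.01, 8.96 and 8.84 log2 CPM. The 2 groups were far apart, and the log2 fold change was 5.62 (SE 0.30, limma adjusted p = 4.41e-25). With the reads of each group pooled and scaled to its pooled counted reads, the ratio of BaP to DMSO was 53.3. Its exact 95% counting interval was 35.9 to 82.6. In HcRed cells CYP1A1 had 2, 0 and 0 reads in DMSO and 335, 390 and 155 in BaP. That ratio was 380, and with only 2 reads in DMSO its counting interval ran from 105 to 3140. In log2 CPM the HcRed-BaP libraries, at 7.91, 8.04 and 8.36, were each below the 3 NRF2-BaP libraries. The log2 fold change in NRF2 cells minus that in HcRed cells was -2.52 (95% interval -4.10 to -0.94), which did not pass after adjustment (limma adjusted p = 0.430). The intervals of the ratios cover counting error only.

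CYP1B1, a related cytochrome that also forms BaP diols, measured 6.13, 6.06 and 6.14 log2 CPM in NRF2-DMSO and 9.19, 9.10 and 9.14 in NRF2-BaP. Its log2 fold change was 3.06 (SE 0.12, limma adjusted p = 4.96e-32), beside 3.11 in HcRed cells, with a difference of -0.06 (95% interval -0.39 to 0.27). The HcRed libraries were higher than the NRF2 libraries on each treatment, at 6.79, 6.70 and 6.85 in DMSO and 9.99, 9.85 and 9.73 in BaP. AHRR, which competes with AhR for ARNT, had 6, 5 and 0 reads in NRF2-DMSO and 44, 21 and 30 in NRF2-BaP. It rose by 3.30 on the log2 scale (SE 0.59, limma adjusted p = 4.32e-05), with the same fold change of 3.30 in HcRed cells but an interval of the difference from -1.75 to 1.76. TIPARP, an ADP-ribosyltransferase that restrains AhR, measured 6.65, 6.73 and 6.50 log2 CPM in NRF2-DMSO and 8.48, 8.22 and 8.58 in NRF2-BaP. Its log2 fold change of 1.81 (SE 0.12, limma adjusted p = 6.41e-21) stood beside 1.55 in HcRed cells.

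Among the AhR target genes that NRF2 also reads, the aldehyde dehydrogenase ALDH3A1 measured 3.73, 2.78 and 3.52 log2 CPM in NRF2-DMSO and 5.68, 5.59 and 4.75 in NRF2-BaP. It rose by 2.16 on the log2 scale (SE 0.36, limma adjusted p = 1.21e-05), beside 2.22 in HcRed cells. NQO1 measured 7.59, 7.46 and 7.34 in NRF2-DMSO and 8.24, 8.35 and 8.39 in NRF2-BaP, against 6.88, 7.02 and 7.0 in HcRed-DMSO and 7.97, 8.29 and 8.23 in HcRed-BaP. The NRF2 line was thus the higher of the 2 lines in DMSO without overlap, and the lines came close to each other in BaP. The log2 fold change of NQO1 was 0.85 (SE 0.09, limma adjusted p = 5.99e-11) in NRF2 cells and 1.20 in HcRed cells, and their difference of -0.35 (95% interval -0.65 to -0.05) did not pass after adjustment (limma adjusted p = 0.807). In all, 6 of the 8 AhR target genes tested rose in NRF2 cells, with a median log2 fold change of 1.99, and 6 of 8 rose in HcRed cells, with a median of 1.88. Of all genes tested, 3.9% rose in NRF2 cells and 2.67% in HcRed cells. The glucuronosyltransferase UGT1A6, at 1.26 (limma adjusted p = 0.194), and CYP2S1, at 0.37 (limma adjusted p = 0.609), did not pass, and CYP1A2 was below the count minimum in NRF2 cells.

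**Figure D1:**
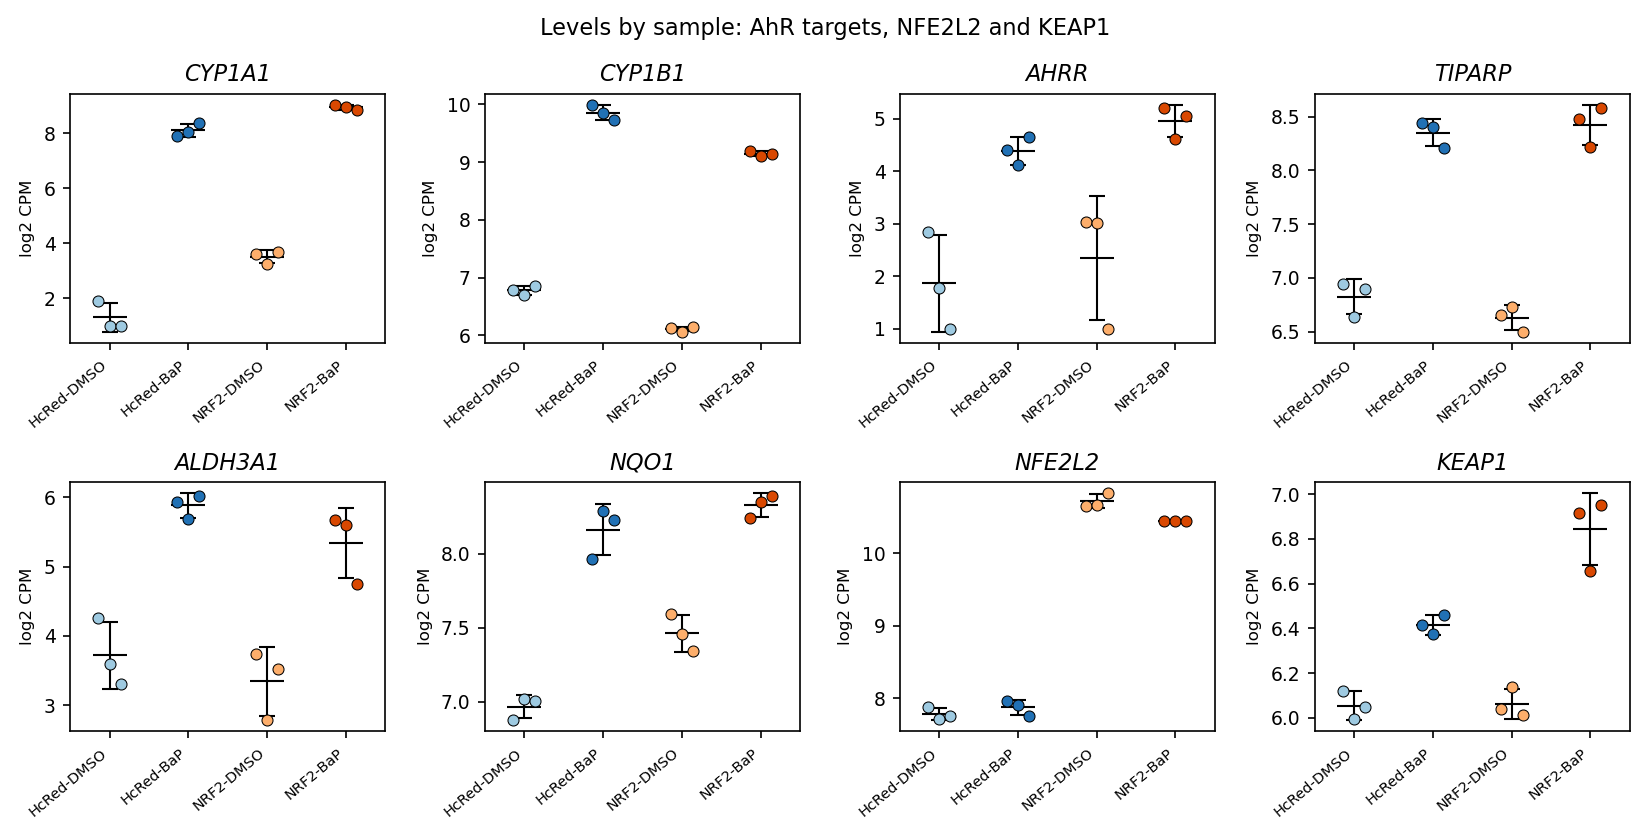
Level in log2 CPM (vertical axis) of 6 AhR target genes, NFE2L2 and KEAP1 in each of the 12 libraries, by line and treatment on the horizontal axis. Points are libraries, and dashes with bars are the mean ± SD (n = 3). The BaP libraries of the NRF2 line lay above its DMSO libraries for every gene shown except NFE2L2, where they lay below, and CYP1A1 moved most, from 3.22 to 3.66 up to 8.84 to 9.01 log2 CPM.

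The genes of the receptor complex moved little or downward. AHR itself had a log2 fold change of -0.04 (limma adjusted p = 0.881) and its partner ARNT of -0.28 (limma adjusted p = 0.306). The chaperones that hold the receptor in the cytosol fell: HSP90AA1 by 0.20, HSP90AB1 by 0.33 and the cochaperone p23, encoded by PTGES3, by 0.29 on the log2 scale (limma adjusted p = 4.34e-09, 2.59e-08 and 0.00746). Their values in HcRed cells were -0.24, -0.22 and -0.21. With a correction for transcript GC and length (the GC correction, described below), PTGES3 no longer passed (limma adjusted p = 0.0802), nor without NRF2-BaP 1 or NRF2-DMSO 3. ARNT2 did not pass either. Of the list, 3 of 7 tested members fell and none rose, against 4.61% of all genes that fell, with a median log2 fold change of -0.28.

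Of 19 tested genes of BaP metabolism, 5 rose and none fell, against 3.9% of all genes that rose. The median log2 fold change was 0.54, beside 0.43 in HcRed cells. Apart from CYP1A1, CYP1B1 and NQO1 the genes that rose were GSTP1, a glutathione transferase that conjugates diol epoxides (log2 fold change 0.56, beside 0.42 in HcRed cells), and POR, which passes electrons to the cytochromes (log2 fold change 0.50, beside 0.39 in HcRed cells). Neither of them passed after the GC correction (limma adjusted p = 0.0688 and 0.491), and POR passed in only 2 of the 6 fits that left out 1 library (without NRF2-BaP 1 or NRF2-DMSO 1). The epoxide hydrolase EPHX1, which turns BaP epoxides into diols, had a log2 fold change of 0.51 in NRF2 cells (limma adjusted p = 0.115) and rose by 0.87 in HcRed cells (limma adjusted p = 0.00637). The difference for EPHX1, -0.36 (95% interval -0.96 to 0.24), did not pass. GSTA1, GSTA2 and UGT1A9 had no read in the 12 libraries.

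Around NRF2 itself, KEAP1 rose in the NRF2 line. It measured 6.04, 6.14 and 6.01 log2 CPM in NRF2-DMSO and 6.92, 6.66 and 6.95 in NRF2-BaP, with no overlap, and the log2 fold change was 0.80 (SE 0.14, limma adjusted p = 4.89e-05). With the GC correction the fold change was 0.48 (limma adjusted p = 0.0314). In HcRed cells KEAP1 measured 6.12, 5.99 and 6.05 in DMSO and 6.42, 6.37 and 6.46 in BaP, a log2 fold change of 0.35 that did not pass (limma adjusted p = 0.215). The difference for KEAP1 of 0.45 (95% interval 0.03 to 0.86) did not pass after adjustment (limma adjusted p = 0.836). SQSTM1, the autophagy receptor p62 that sequesters KEAP1, measured 7.70, 7.68 and 7.81 in NRF2-DMSO and 8.81, 9.05 and 8.91 in NRF2-BaP. It rose by 1.19 on the log2 scale (SE 0.08, limma adjusted p = 7.69e-19), beside 0.98 in HcRed cells. Of the small MAF partners, MAFF had 7, 0 and 7 reads against 17, 13 and 15 and rose by 1.99 (limma adjusted p = 0.018), and MAFG rose by 0.51 (limma adjusted p = 0.0467), both losing the call under the GC correction (limma adjusted p = 0.0742 and 0.434). Without NRF2-DMSO 2, the library with 0 reads, the MAFF value was 0.84 and did not pass, nor did it pass without NRF2-DMSO 3, and MAFG passed in none of the 6 fits that left out 1 library. In all, 4 of the 10 tested genes of this group rose in NRF2 cells and 1, NFE2L2, fell, beside 3.9% and 4.61% of all genes.

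NRF2 target genes rose with BaP although the line overexpressed NRF2: 16 of the 34 tested rose and none fell, against 3.9% of all genes that rose. The median log2 fold change was 0.62. In HcRed cells 17 of 34 rose, against 2.67% of all genes, with a median of 0.66. The iron storage subunit FTL measured 8.56, 8.55 and 8.44 log2 CPM in NRF2-DMSO and 9.99, 9.87 and 9.96 in NRF2-BaP, against 7.64, 7.38 and 7.52 in HcRed-DMSO and 8.90, 8.86 and 9.25 in HcRed-BaP. FTL thus stood higher in the NRF2 line on each treatment, and its fold changes were close, at 1.42 and 1.43, with a difference of 0.00 (95% interval -0.24 to 0.24). The other ferritin subunit, FTH1, rose by 0.71 on the log2 scale, and the thioredoxin reductase TXNRD1, whose promoter is printed above, by 0.64, from 8.68, 8.74 and 8.73 to 9.36, 9.29 and 9.45 log2 CPM. In HcRed cells FTH1 and TXNRD1 rose by 0.55 and 0.72. Both subunits of glutamate cysteine ligase, which makes the precursor of glutathione, rose, GCLC by 0.69 and GCLM by 0.84, with 0.68 and 0.61 in HcRed cells. The sulfiredoxin SRXN1 rose by 0.96 and the cystine carrier SLC7A11 by 0.60, beside 1.07 and 0.51 in HcRed cells. The enzymes of the pentose phosphate pathway, which supplies NADPH, moved by less. TKT rose by 0.40, TALDO1 by 0.44 and PGD by 0.28, beside 0.53, 0.38 and 0.29 in HcRed cells. With the GC correction 12 of the 34 targets rose, and TALDO1 and PGD were among those that did not pass (limma adjusted p = 0.141 and 0.236). GCLC, GCLM, SRXN1, SLC7A11 and the pentose phosphate genes were chosen after their values were seen. The summed level of the list ran from 4008 to 4144 CPM in NRF2-DMSO and from 6528 to 6585 in NRF2-BaP, against 3184 to 3377 and 4981 to 5478 in HcRed cells.

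The other gene lists moved in part. Early response genes of the AP-1, EGR and MYC list rose in 8 of 17 cases and none fell, against 3.9% of all genes that rose. EGR1, a zinc finger factor induced within minutes of many stimuli, measured 6.31, 6.51 and 6.68 log2 CPM in NRF2-DMSO and 8.07, 8.49 and 8.36 in NRF2-BaP, a log2 fold change of 1.81 (SE 0.12, limma adjusted p = 2.62e-19) beside 2.12 in HcRed cells. FOS and JUND, subunits of AP-1, rose by 1.37 and 0.83, beside 2.35 and 0.76 in HcRed cells. The list had 10 rises in HcRed cells, against 2.67% of all genes there. In NRF2 cells 5 rose after the GC correction, where JUND did not pass (limma adjusted p = 0.0861).

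Of 27 tested p53 targets 1 rose, a share near the 3.9% of all genes, and 2 rose after the GC correction. CDKN1A, the p21 inhibitor of cyclin dependent kinases, measured 6.70, 6.78 and 6.56 log2 CPM in NRF2-DMSO and 7.65, 7.78 and 7.51 in NRF2-BaP, a log2 fold change of 0.97 (SE 0.12, limma adjusted p = 1.85e-09) beside 0.96 in HcRed cells. The list's median of 0.12 lay close to that of all genes. Of 30 tested genes of nucleotide excision repair and translesion synthesis, the pathways that remove or bypass BaP adducts, MAD2L2 and ERCC1 rose, by 0.90 and 0.67, and REV3L fell by 0.40, also shares near those of all genes. Their values in HcRed cells were 0.03, 0.11 and -0.20, none of which passed. Leaving out single libraries ended the call for MAD2L2 in 2 of 6 cases (without NRF2-BaP 1 or NRF2-DMSO 2, where it was 0.51), for REV3L in 3 (without NRF2-BaP 2, where it was -0.24, NRF2-DMSO 2 or NRF2-DMSO 3) and for ERCC1 in 4 (all but NRF2-BaP 2 and NRF2-DMSO 2). None of the 3 passed after the GC correction (limma adjusted p = 0.157, 0.286 and 0.39).

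Mitosis and spindle genes fell. Of 31 tested, 17 fell and none rose in NRF2 cells, against 4.61% of all genes that fell. In HcRed cells 5 fell, against 2.05% of all genes there. The kinesin CENPE measured 9.33, 9.30 and 9.49 log2 CPM in NRF2-DMSO and 8.54, 8.57 and 8.75 in NRF2-BaP and fell by 0.77, beside -0.50 in HcRed cells. CENPF, TOP2A and MKI67, a kinetochore protein, a topoisomerase and a marker of dividing cells, fell by 0.60, 0.47 and 0.34 on the log2 scale (limma adjusted p = 1.43e-17, 1.57e-14 and 2.02e-12). In HcRed cells they fell by 0.42, 0.40 and 0.29. No member of the list passed for a difference between the lines, and 15 fell in NRF2 cells after the GC correction. Of 35 DNA replication genes 3 fell and 1 rose, beside 4.61% and 3.9% of all genes: the helicase subunit MCM4, CLSPN and POLA1 fell by 0.27, 0.29 and 0.40, and the licensing factor CDT1 rose by 0.50. Their values in HcRed cells were -0.10, -0.30, -0.33 and 0.44, none of which passed. After the GC correction CLSPN, POLA1 and CDT1 no longer passed in NRF2 cells (limma adjusted p = 0.378, 0.218 and 0.764). CDT1 also lost the call without NRF2-BaP 2 or 3 or NRF2-DMSO 1 or 3, CLSPN without NRF2-BaP 2 or NRF2-DMSO 2 or 3, and POLA1 without NRF2-BaP 1 or 2 or NRF2-DMSO 1 or 2.

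Several chaperone genes fell. Of 17 tested heat shock chaperones 7 fell and 1 rose, beside 4.61% and 3.9% of all genes. HSPA8 fell by 0.41, from 10.75, 10.69 and 10.80 to 10.32, 10.35 and 10.35 log2 CPM. The mitochondrial chaperonin HSPD1 fell by 0.37. The values of HSPA8 and HSPD1 in HcRed cells were -0.20 and -0.30. DNAJB1, chosen after its value was seen, rose by 0.35 in NRF2 cells and lost the call with the GC correction (limma adjusted p = 0.531). Of 21 genes of the unfolded protein response of the endoplasmic reticulum 5 fell and none rose, against 4.61% of all genes that fell. Among them the disulfide isomerase PDIA3 fell by 0.45 and the chaperone HSPA5 by 0.28, beside -0.18 and -0.06 in HcRed cells. Of 27 genes of cholesterol and fatty acid synthesis 5 fell and 1 rose in NRF2 cells, beside 4.61% and 3.9% of all genes. The other 21 did not pass, and the median log2 fold change was 0.00. The desaturase SCD fell by 0.67 on the log2 scale, from 11.50, 11.47 and 11.61 to 10.82, 10.86 and 10.91 log2 CPM (limma adjusted p = 1.78e-29), and the elongase ELOVL6 by 0.75. In HcRed cells the values of SCD and ELOVL6 were -0.45 and -0.10, of which that of ELOVL6 did not pass.

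Matrix genes of the TGF-beta list split, with 3 of 30 rising and 8 falling, beside 3.9% and 4.61% of all genes. Fibronectin, encoded by FN1, fell by 0.91 and the basement membrane collagen COL4A1 by 0.94, while the secreted adhesion protein TGFBI rose by 0.68, beside -0.61, -0.72 and 0.54 in HcRed cells. Of 73 ribosomal protein genes 62 did not pass, while 6 rose, such as RPS9 (log2 fold change 0.55), and 5 fell, such as RPS6 (log2 fold change -0.38), beside 3.9% and 4.61% of all genes. After the GC correction 1 of the 73 rose and 8 fell. In HcRed cells RPS9 and RPS6 had log2 fold changes of 0.23 and -0.18 that did not pass. In the ATF4 amino acid response 4 of 23 rose and 2 fell in NRF2 cells, beside 3.9% and 4.61% of all genes. After the correction none rose and 2 fell. Among hypoxia and glycolysis genes 5 of 24 rose and 2 fell, beside the same shares of all genes, and 1 rose after the correction. GAPDH rose by 0.34 and LDHA fell by 0.38, beside 0.33 and -0.41 in HcRed cells. In the squamous envelope list 2 of 20 fell, against 4.61% of all genes. These were KRT16, by 0.96, and KRT6A, by 0.18, beside -0.19 and 0.11 in HcRed cells. In the IL-1 and chemokine list the cytokine IL1A alone of 10 rose (log2 fold change 1.11, limma adjusted p = 0.00218), beside 3.9% of all genes. IL1A rose by 1.54 in HcRed cells. No interferon-stimulated gene of 21 tested and no metallothionein of 5 passed in NRF2 cells. In HcRed cells 2 of 22 and 2 of 5 rose, beside 2.67% of all genes, the metallothioneins being MT2A (0.26) and MT1E (0.46). The interferon list had a median log2 fold change of 0.41 in NRF2 cells and 0.08 in HcRed cells. No member of either list passed for a difference between the lines.

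**Figure D2:**
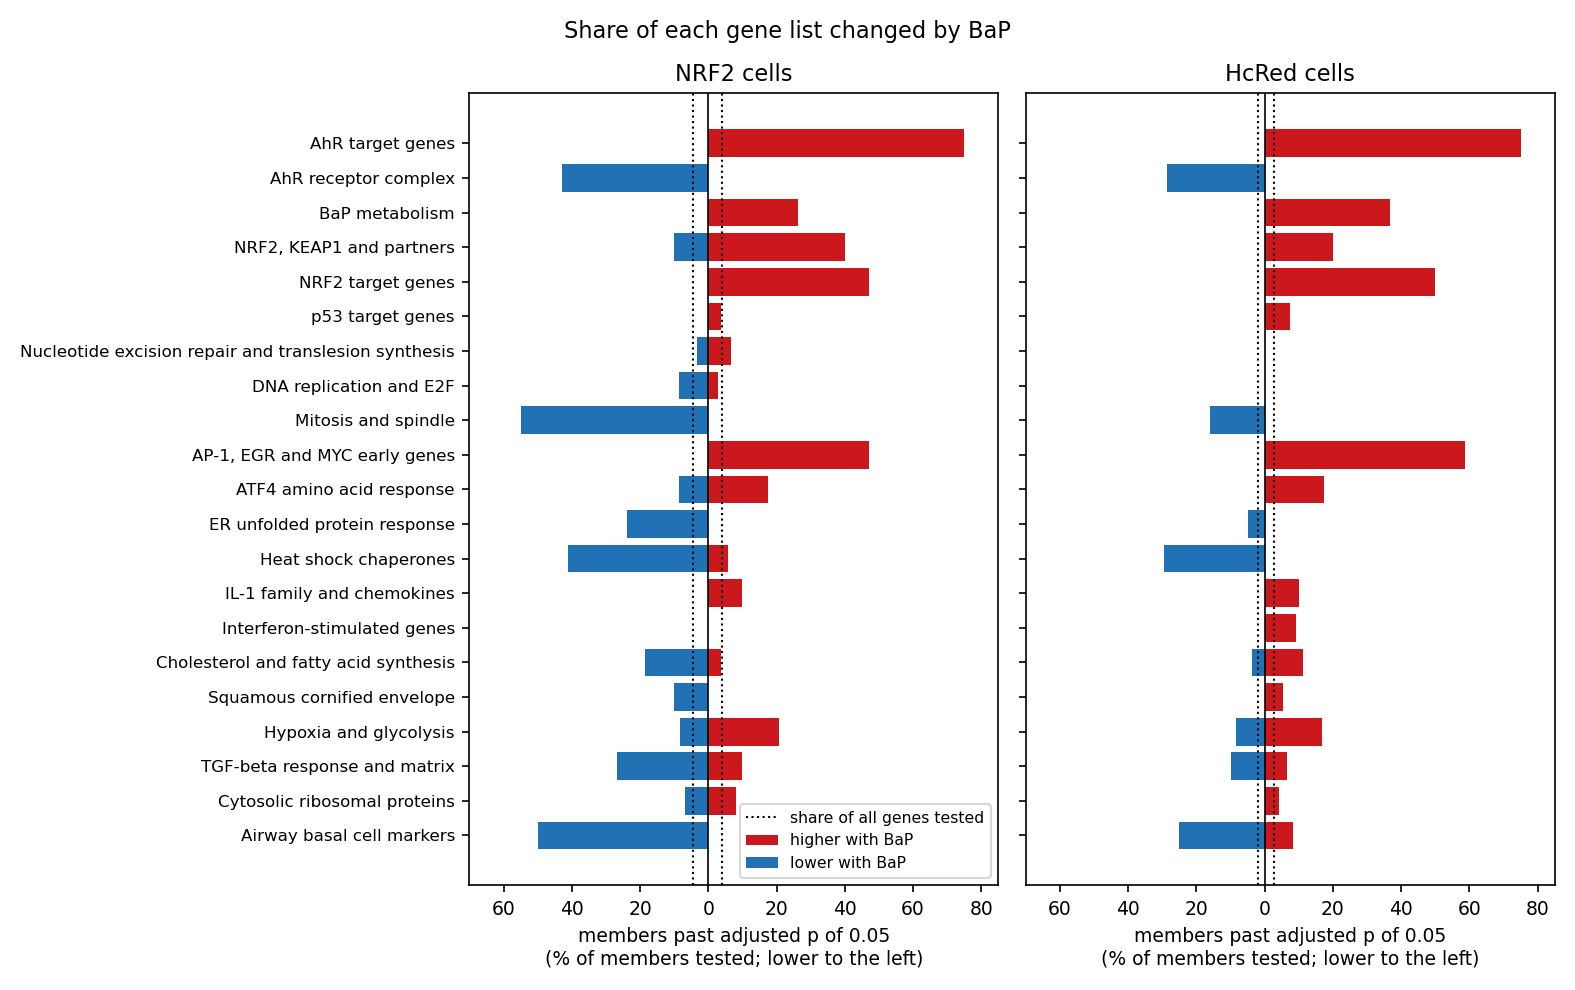
Percent of each list's tested members that rose (to the right) or fell (to the left) with BaP at an adjusted p under 0.05, for the NRF2 and HcRed lines. Dotted lines mark the share of all tested genes. AhR and NRF2 target genes extend to the right in both lines, and mitosis genes (17 of 31 in NRF2 cells) and basal cell markers (6 of 12) to the left.

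Some markers of airway basal cells fell. AALE cells carried this identity in every library, with a summed level of the 12 basal markers from 7941 to 11197 CPM in NRF2 cells, while ciliated cell markers reached at most 14.8 CPM and secretory markers at most 4.79 CPM in NRF2 cells. Of the 12 basal markers 6 fell, none rose and 6 did not pass with BaP in NRF2 cells, against 4.61% of all genes that fell, with a median log2 fold change of -0.30. In HcRed cells 3 fell and 1 rose, beside 2.05% and 2.67% of all genes there, with a median of -0.12. In 11 of the 12 the fold change was lower in NRF2 cells. The median difference of the 12 was -0.30, beside -0.02 for all genes tested. The keratin KRT14 measured 9.48, 9.41 and 9.24 log2 CPM in NRF2-DMSO and 8.42, 8.22 and 7.83 in NRF2-BaP, a log2 fold change of -1.21 (SE 0.08, limma adjusted p = 5.29e-20) beside -0.50 in HcRed cells. TP63, the master transcription factor of basal cells, fell by 0.52 (limma adjusted p = 0.000325) beside -0.11, and the laminin receptor subunit ITGA6 by 0.52 beside -0.40. KRT14 also fell by 1.13 in GFP cells, the control of the CRISPR lines, and its difference against that line was -0.11. These are bulk libraries, so fewer cells of a type and less RNA per cell cannot be told apart. After the GC correction 8 of the 12 fell. Summed fibroblast markers moved the other way, from 8.06 to 19.5 CPM in NRF2-DMSO up to 21.5 to 36.1 in NRF2-BaP, where COL1A1 was the only one of 9 markers above the count minimum and 3 had no read in any library. COL1A1 rose by 1.04 (limma adjusted p = 0.0238, and 0.198 after the GC correction) and did not pass without NRF2-BaP 3, NRF2-DMSO 1 or NRF2-DMSO 3. The part of other cell types in the result was not tested.

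By size, 12 rises and 12 falls stood out among called genes that averaged 10 reads or more and whose groups did not overlap. Besides CYP1A1, AHRR, CYP1B1, ALDH3A1, TIPARP and EGR1 the rises included FAM214B (log2 fold change 1.73), SECTM1, a secreted ligand of immune cells (1.70), YPEL3 (1.62), SLC22A17, a lipocalin receptor (1.59), and the actin bundling protein ESPN (1.54). SECTM1 went from 21, 13 and 14 reads to 63, 72 and 57, and had a log2 fold change of 1.41 in HcRed cells. FAM214B went from 3, 7 and 4 reads to 24, 18 and 14, beside a log2 fold change of 0.39 in HcRed cells, and the difference between the lines did not pass (limma adjusted p = 0.807). In HcRed cells YPEL3 and SLC22A17 had log2 fold changes of 0.43 and 0.64 that did not pass, and ESPN rose by 1.19. Without NRF2-DMSO 1 the rises of FAM214B, YPEL3 and SLC22A17 did not pass, at 1.38, 1.22 and 1.06.

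The largest falls were in TENM4, a teneurin of cell adhesion (log2 fold change -1.73), LOC221946 (-1.67), LINC01355 (-1.52), the cholesterol exporter ABCA1 (-1.46), the carboxypeptidase CPA4 (-1.43), AAMDC (-1.42), the Wnt inhibitor DKK1 (-1.38), GRIP1 (-1.36), the kinase CDK14 (-1.34), the basic helix-loop-helix factor TCF4 (-1.33), the desaturase SCD5 (-1.31) and the glutamate carrier SLC1A3 (-1.29). DKK1 had the smallest adjusted p of these, 4.71e-11 by limma, and went from 7.02, 7.17 and 7.06 log2 CPM to 5.94, 5.69 and 5.48. Its log2 fold change in HcRed cells was -0.52 (limma adjusted p = 0.0461), and the difference of -0.87 (95% interval -1.32 to -0.41) did not pass after adjustment (limma adjusted p = 0.116). ABCA1 fell by 2.15 in HcRed cells, with no call for a difference. LINC01355 (-1.49), CPA4 (-1.16) and SCD5 (-0.91) also fell in HcRed cells. There LOC221946 (0.37), AAMDC (0.43), GRIP1 (-0.04), CDK14 (-0.32), TENM4 (-0.55), TCF4 (-0.74) and SLC1A3 (-0.47) did not pass. None of these genes passed for a difference between the lines. Without NRF2-BaP 1 the falls of LINC01355, AAMDC and TCF4 did not pass, at -0.91, -1.36 and -1.09, and that of TCF4 did not without NRF2-DMSO 1 either. All tests were two-sided.

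The BaP response was compared with that of HcRed cells gene by gene. Of 13714 genes tested in both lines, 356 were called in both, 353 of them in the same direction, which is 29.4% of the NRF2 calls and 53.1% of the 671 HcRed calls. Of the genes called in NRF2 cells, 94.8% had the same sign in HcRed cells, against 67.9% of all genes. Over the 10113 genes that averaged 10 reads or more the fold changes of the 2 lines had a Pearson r of 0.556, and over all 13714 of 0.321. Genes are not independent replicates, and these correlations are a description.

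**Figure D3:**
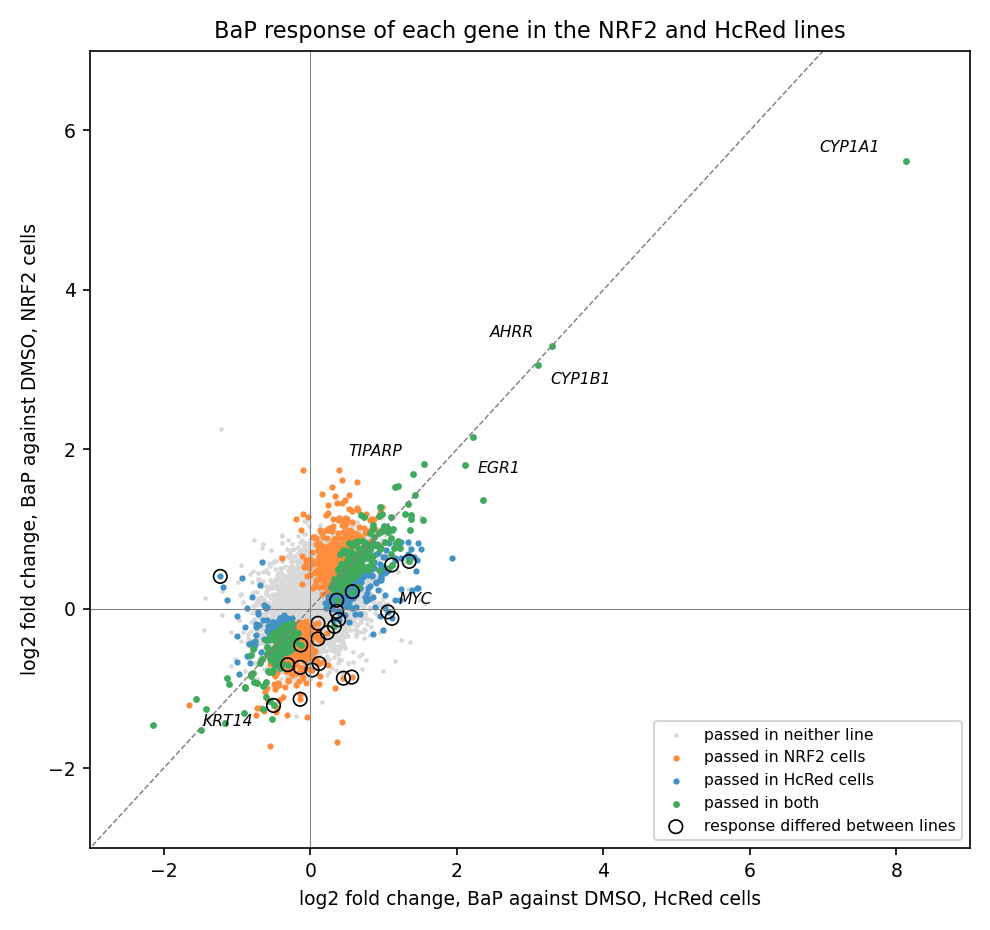
Log2 fold change with BaP in HcRed cells (horizontal axis) and NRF2 cells (vertical axis) for the reported genes averaging 10 reads or more, colored by the line in which they passed. Circles mark genes whose response differed between lines, and the dashed line marks equal fold changes. AhR target genes lie high in both lines, CYP1A1 at fitted values of 8.13, which rests on 2 reads in HcRed-DMSO, and 5.62.

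The fold changes of both lines moved with GC content. In NRF2 cells the log2 fold change had a Spearman correlation across genes of 0.537 with the GC content of the transcript (9757 genes) and of -0.19 with its length, and in HcRed cells of 0.582 and -0.17. The median GC content was 59.3% for genes that rose in NRF2 cells, 40.8% for those that fell and 46.6% for all. The median log2 fold change went from -0.19 in genes of 30 to 35% GC to 0.45 in genes of 65 to 70% GC. When each library's trend with GC content and length was removed, 553 genes passed in NRF2 cells, 161 higher and 392 lower, against 554 and 655 without it. Of these 553, 406 had passed without the correction, 404 of them in the same direction. The correction covered the 93.6% of tested genes with a known GC content. List counts given after the GC correction stand beside the 161 and 392 genes of that whole set. The share of reads on small nucleolar RNA genes was also higher in BaP, 0.298 to 0.325% in NRF2-BaP against 0.252 to 0.255% in NRF2-DMSO. The share on mitochondrial ribosomal RNA was lower, 0.616 to 0.632% in NRF2-BaP against 0.729 to 0.810% in NRF2-DMSO. Whether these trends arose in the cells or in the libraries was not tested. For the difference between lines the correlation with GC content was -0.01.

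**Figure D4:**
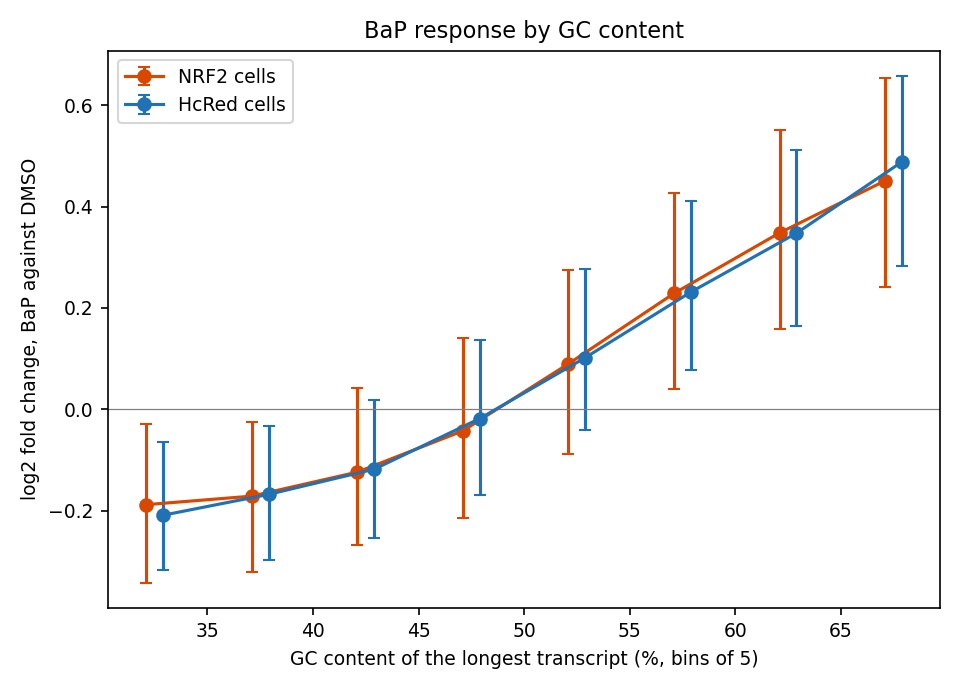
Median log2 fold change with BaP (vertical axis, bars from the lower to the upper quartile of genes) by GC content of the longest transcript in bins of 5% with at least 20 genes. The curves of the NRF2 and HcRed lines nearly coincide and rise from -0.19 and -0.21 to 0.45 and 0.49.

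The difference between lines was tested by the interaction of line and treatment over the 12 libraries. It passed for 24 of 14325 genes, 0.168%, with 839 at an unadjusted p under 0.05. In 22 of the 24 the fold change was lower in NRF2 cells than in HcRed cells, and ULK4 was among the rest, with a difference of 1.63 (limma adjusted p = 0.0358). Of the 22, 14 fell in NRF2 cells, of which 3 fell in HcRed cells too. Among the 22, 10 rose in HcRed cells, of which 4 rose in NRF2 cells too and 2 fell there.

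Genes that fell in NRF2 cells with little or less change in HcRed cells formed the larger group. FAT2, a giant protocadherin of epithelia, measured 9.81, 9.86 and 9.70 log2 CPM in NRF2-DMSO and 9.07, 9.0 and 9.0 in NRF2-BaP, against 9.12, 9.39 and 9.18 in HcRed-DMSO and 9.24, 9.18 and 9.37 in HcRed-BaP. The NRF2 groups were apart and the HcRed groups overlapped, and the difference of the fold changes was -0.80 (SE 0.10, limma adjusted p = 1.07e-08). AHNAK, a giant scaffold protein of the membrane, measured 12.43, 12.44 and 12.33 in NRF2-DMSO and 11.67, 11.75 and 11.72 in NRF2-BaP, against 12.37, 12.49 and 12.53 and then 12.17, 12.14 and 12.14 in HcRed cells. It fell in both lines, by 0.70 in NRF2 cells and 0.31 in HcRed cells, with a difference of -0.40 (SE 0.04, limma adjusted p = 2.95e-10). FKBP5, a cochaperone of steroid receptors and HSP90, measured 10.27, 10.21 and 10.32 in NRF2-DMSO and 9.57, 9.55 and 9.48 in NRF2-BaP, against 9.62, 9.63 and 9.73 and then 9.48, 9.59 and 9.47 in HcRed cells. The difference for FKBP5 was -0.60 (SE 0.08, limma adjusted p = 5e-07). For FAT2 and FKBP5 the NRF2-DMSO libraries lay above all the HcRed libraries, and the NRF2-BaP libraries came down to or just below the HcRed range.

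The basal keratins belonged to the same group. KRT5 measured 12.41, 12.39 and 12.33 log2 CPM in NRF2-DMSO and 12.02, 11.96 and 11.75 in NRF2-BaP, against 11.99 to 12.04 in HcRed-DMSO and 11.93, 11.81 and 11.94 in HcRed-BaP. The difference for KRT5 was -0.33 (SE 0.05, limma adjusted p = 5.18e-06), and for KRT14, whose HcRed libraries measured 9.08, 9.25 and 8.88 and then 8.60, 8.55 and 8.49, it was -0.72 (SE 0.12, limma adjusted p = 0.000164). The KRT5 difference passed neither with the quasi-likelihood test of edgeR nor with DESeq2, and the KRT14 difference did not pass with DESeq2. EGFR, the receptor of epidermal growth factor, fell by 0.38 in NRF2 cells with a fold change of 0.11 in HcRed cells, a difference of -0.49 (limma adjusted p = 0.0011). For the focal adhesion protein TNS4 the difference was -0.56 (limma adjusted p = 0.0011), between -0.22 in NRF2 cells and a rise of 0.33 in HcRed cells. The NRF2 value passed (limma adjusted p = 0.0241) but not without NRF2-BaP 3, NRF2-DMSO 1 or NRF2-DMSO 2. CCND1, the cyclin that drives entry into S phase, fell by 0.69 beside 0.12 in HcRed cells (difference -0.81, limma adjusted p = 0.039), and the nuclear receptor NR2F2 by 1.14 beside -0.14 (difference -1.0, limma adjusted p = 0.00476). A small nucleolar RNA, SNORA16A, fell by 0.87 in NRF2 cells with a fold change of 0.45 in HcRed cells that did not pass (difference -1.33, limma adjusted p = 0.000581). CCND1, NR2F2 and ULK4 were chosen after their values were seen.

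Other genes rose in HcRed cells and little or not at all in NRF2 cells. MYC, the growth promoting transcription factor, measured 7.42, 7.24 and 7.46 log2 CPM in NRF2-DMSO and 7.51, 7.33 and 7.14 in NRF2-BaP, groups that overlapped, with a log2 fold change of -0.04 (limma adjusted p = 0.876). In HcRed cells it went from 6.56, 6.53 and 6.63 to 7.55, 7.69 and 7.61 and rose by 1.06, so that the difference was -1.10 (SE 0.17, limma adjusted p = 9.09e-06). The HcRed-BaP libraries thereby lay just above the level of the NRF2 line in DMSO. KRT17, a keratin of stressed epithelium, measured 11.14, 11.12 and 10.88 in NRF2-DMSO and 11.22, 10.95 and 10.81 in NRF2-BaP, and rose by 0.36 in HcRed cells from 10.34, 10.48 and 10.31 to 10.83, 10.64 and 10.70 (difference -0.41, limma adjusted p = 0.00346). The KRT17 difference did not pass without NRF2-DMSO 1, NRF2-DMSO 2, NRF2-BaP 3 or HcRed-BaP 1, where it ran from -0.37 to -0.31. With DESeq2 it did not pass either. Without NRF2-BaP 1 the NRF2 value of KRT17 itself passed. The amino acid carrier SLC7A5 rose in both lines, by 0.21 in NRF2 cells and 0.57 in HcRed cells (difference -0.36, limma adjusted p = 0.000581), and the phosphatase DUSP1 likewise, by 0.59 and 1.35 (difference -0.76, limma adjusted p = 0.0169). With the GC correction the SLC7A5 fold change in NRF2 cells turned to -0.10 (limma adjusted p = 0.0268). The SLC7A5 difference between the lines did not pass with DESeq2.

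**Figure D5:**
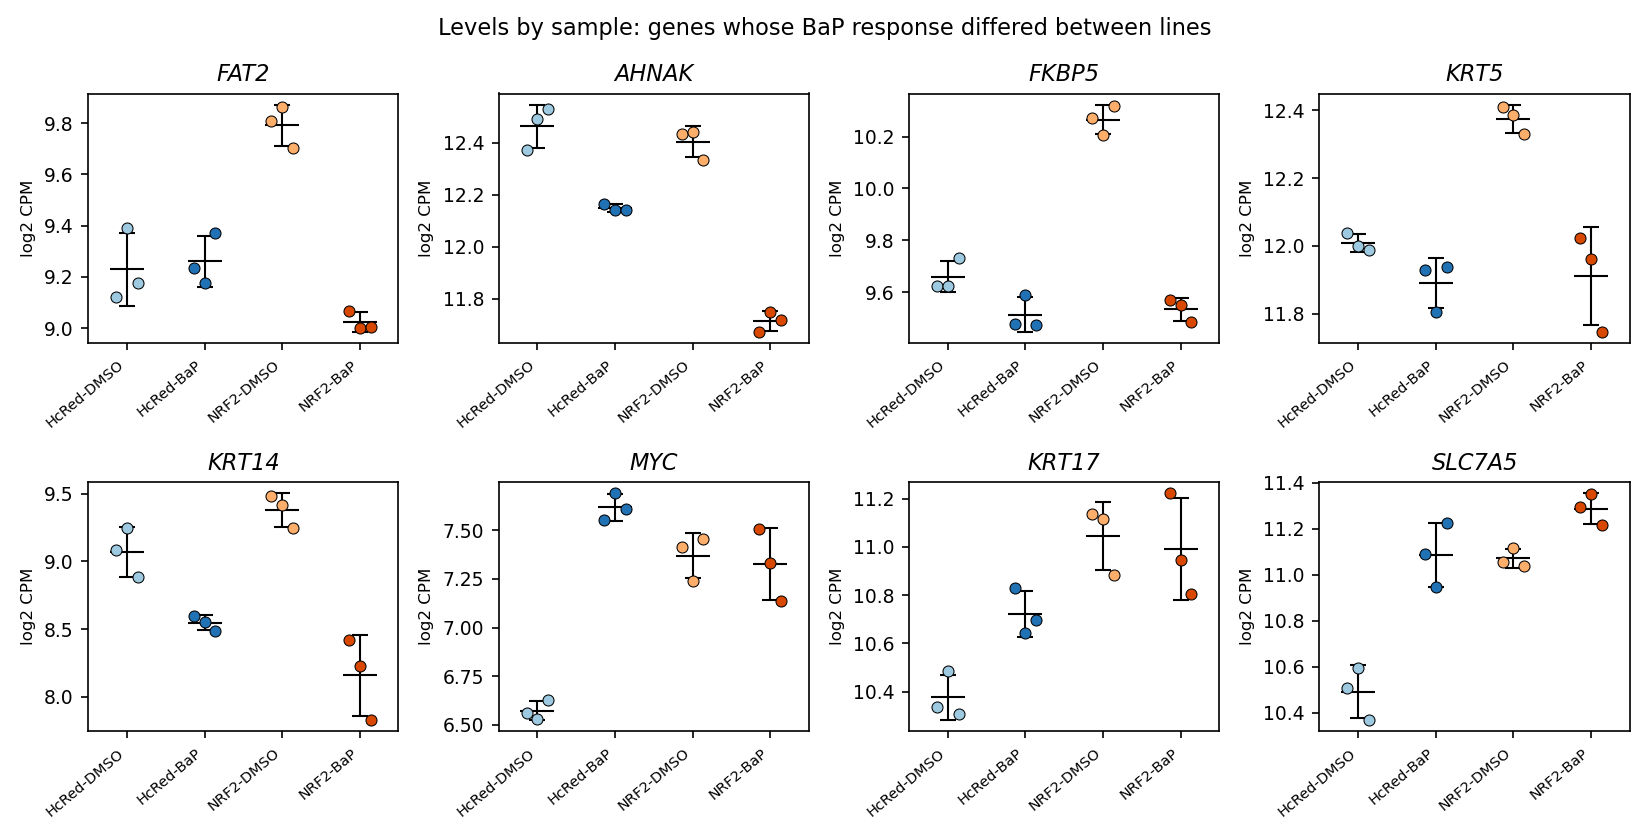
Level in log2 CPM (vertical axis) of 8 genes whose BaP response differed between lines, in each of the 12 libraries. Points are libraries, and dashes with bars are the mean ± SD (n = 3). FAT2, AHNAK, FKBP5, KRT5 and KRT14 dropped in NRF2-BaP, while MYC and KRT17 rose in the HcRed line and overlapped in the NRF2 line, and SLC7A5 rose less in the NRF2 line.

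These differences depended in part on the control line. With GFP cells, the control of the CRISPR lines, in place of HcRed cells (chosen after seeing the data), 30 genes passed, and 9 of the 24 were among them, in comparisons that use the same NRF2 libraries. Against GFP the difference for KRT14 was -0.11 (limma adjusted p = 0.931), since KRT14 fell by 1.13 in GFP cells, and that for MYC was -0.68 (limma adjusted p = 0.53). The EGFR difference against GFP was -0.20 (limma adjusted p = 0.714). All 22 lower differences kept their sign against GFP. Their choice by a low NRF2 value and the shared NRF2 libraries contributed to that count, which was not tested. Leaving out NRF2-DMSO 2 left 14 genes.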

How the data were processed

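Read counts per gene were analysed for 6 NRF2 and 6 HcRed libraries (3 per treatment) of the 95. The deposited counts were made by the authors: adapters trimmed with Cutadapt 1.12, single-end reads aligned to hg19 with STAR 2.5.2b, and whole reads counted over RefSeq genes with featureCounts, replicates kept apart. Strand use in counting is not given in the sources used here, so overlapping and antisense genes cannot be told apart, and near-identical copies may share reads. Tools are as in the submitters' processing notes. Samples were grouped by their labels. The legend of the study's design figure calls the replicates biological, and the labels do not say whether they were separate cultures.

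Genes averaging more than 1 read were fitted with limma-voom (limma 3.58.1, edgeR 4.0.16, R 4.3.3) after TMM scaling, separately in each line, with Benjamini-Hochberg adjustment over all tested genes and a threshold of 0.05. The interaction was fitted over the 12 libraries. Levels are log2 CPM with a prior count of 2. Fits were tested on simulated data. Positions, GC content and exon length came from the longest transcript of the GENCODE annotation of GRCh37, matched by symbol for 24309 of 27978 genes (86.9%). GC and length trends were removed by loess (span 0.3). Promoters came from RefSeq by symbol, for 7 of 9 AhR and 22 of 34 NRF2 targets.

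Named were all genes of the AhR, receptor, metabolism and NRF2 partner lists, the 12 largest rises and falls averaging 10 reads or more without overlap of the groups, up to 4 members per list by smallest p, and the 12 smallest interaction p-values; exceptions are said, and some genes are not reported here. Members and lists were chosen with earlier results of these data known. The alternatives took DESeq2 1.42.0 or the quasi-likelihood test of edgeR, other scalings and count minimums, the most variable genes, all 95 samples, a replicate block, or 1 library fewer. Replicates of a group differed by more than sampling noise (chi-square over degrees of freedom 1.15 to 1.75).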

Additional observations from a re-analysis of the deposited data

Results flagged for a closer look

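The BaP response differed between NRF2 and HcRed cells for the genes below, by the limma interaction test over 12 libraries, each value being the log2 fold change in NRF2 cells minus that in HcRed cells. The value was -0.40 for AHNAK, -0.80 for FAT2, -0.60 for FKBP5 and -0.33 for KRT5. It was -1.10 for MYC, -0.72 for KRT14, -0.36 for SLC7A5 and -1.33 for SNORA16A. It was -0.56 for TNS4, -0.49 for EGFR and -0.41 for KRT17. With DESeq2 the differences for KRT5, KRT14, SLC7A5 and KRT17 did not pass. Against GFP cells those for MYC, KRT14, SNORA16A and EGFR did not pass. The KRT17 difference passed in 8 of the 12 fits that left out 1 library.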

How the results depend on the processing

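Of the named genes' changes in NRF2 cells, 1174 values under alternative settings kept direction and side of the threshold, 61 no longer passed, 3 newly passed and 1 turned: SLC7A5, at -0.10 after the GC and exon length correction. Leaving out single libraries kept 712 such values, with 51 no longer passing and 3 newly passing. Of the named differences between lines, 96 values under other settings kept their call and 10 no longer passed, and leaving out single libraries gave 140 and 4. DESeq2 called 345 genes in NRF2 cells, 161 in HcRed cells and 8 for the difference, against 1209, 672 and 24 with limma-voom, and all 345 and all 8 were among the limma-voom calls; the cause was not tested. The GC and length correction gave 553 and 176 genes in the 2 lines and 24 for the difference. Without the correction, the genes of known GC content, an alternative chosen after seeing the data, gave 1188, 648 and 22. GFP cells as control line, also chosen after seeing the data, gave 30. Leaving out 1 library gave 691 (without NRF2-DMSO 3) to 1185 genes in NRF2 cells, 269 (without HcRed-DMSO 3) to 715 in HcRed cells, with 358 without HcRed-BaP 1 and 353 without HcRed-DMSO 1, and 14 (without NRF2-DMSO 2) to 29 for the difference. The labels link same-numbered libraries of NRF2-DMSO and NRF2-BaP, or of the HcRed groups, by number only. The correlation of their deviations ran from -0.03 to 0.03. It covers many genes with few reads, so it cannot tell whether such libraries shared a batch. With the replicate block 1315, 546 and 34 genes passed. Depth limits genes near 3 reads, 2.01 to 6.51 CPM.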

Other observations

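Over all 8 lines of the series, each with its own DMSO control, CYP1A1 rose with BaP by 4.40 to 8.13 on the log2 scale, CYP1B1 by 2.72 to 4.11 and TIPARP by 1.08 to 1.81, where the NRF2 line had the highest value for TIPARP. AHRR ran from 1.74 to 3.68, ALDH3A1 from 0.86 to 2.84 and NQO1 from 0.65 to 1.43. For the 22 genes with a lower response in NRF2 than in HcRed cells, the NRF2 value was the lowest of the 8 lines in all 22, a count to which their choice by a low NRF2 value contributed and which was not tested. KRT14 ranged from -1.21 to -0.38 over the lines, and MYC from -0.04 to 1.58.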
